A study of Mus musculus with 6 samples.

Results

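The genes described here encode the subunits of the proteasome, its activators, its inhibitor and its assembly chaperones. They were chosen by name, with earlier results of these data known, and no measured value enters the rule. Every protein-coding gene whose symbol is Psm followed by a letter from a to g and a number was taken, which gave 48 of the 55487 genes in the files. Within these, 5 genes (Psmb8, Psmb9, Psmb10, Psme1 and Psme2) are the immune subunits, and they were set against the other 43.

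The proteasome degrades proteins that carry ubiquitin. Its 20S core is a barrel of alpha and beta rings, with the cutting sites inside on the catalytic beta subunits Psmb5, Psmb6 and Psmb7. Its 19S particle, made of a base, which holds a ring of ATPases, and a lid, recognises, unfolds and feeds in the substrate. Interferon can replace the catalytic subunits by the immune ones, Psmb8 for Psmb5, Psmb9 for Psmb6 and Psmb10 for Psmb7, which gives the immunoproteasome known for making peptides for MHC class I, and it raises the PA28 activator made of Psme1 and Psme2. Chondrocytes, the cells that make and keep cartilage matrix, use the constitutive proteasome for protein turnover.

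RNA came from cultured chondrocytes of C57B/6 mouse knee cartilage and was sequenced as stranded mRNA libraries. All cells were exposed for 24 h to extracellular vesicles, membrane-bound particles shed by cells, from macrophages, at a protein dose of 10 µg/ml. The M-EV group (3 libraries) received vesicles of macrophages for which the labels name no stimulus, and the M-LPS-EV group (3 libraries) received vesicles of macrophages treated with LPS, the outer-membrane lipopolysaccharide of bacteria. The title of the series names non-canonical pyroptosis, a lytic cell death, and cartilage breakdown in osteoarthritis as its subject. The mice's age, the vesicle donors and whether the replicates were separate cultures or animals are not given in the labels, so each p-value reflects the spread among these libraries alone, which may be technical. Cells without vesicles were not analysed here, so each difference is between the vesicle types.

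The expected counts, the reads that the authors' software assigned to each gene, summed to between 20239626 and 25712667 per library. Proteasome genes held between 0.3746% and 0.3824% of them. Chondrocyte markers matched the label, with Col2a1, the main cartilage collagen, at 33464 to 34004 TPM in M-EV and 29244 to 30067 TPM in M-LPS-EV. TPM is a transcript abundance scaled by transcript length and library total and is used here for levels, while a change is the fitted log2 fold change from scaled counts, positive where M-LPS-EV was higher. For the markers, higher and lower are calls as defined below, which 16.4% and 15.2% of all tested genes received. All 6 chondrocyte markers were tested, and 5 were lower in M-LPS-EV. Of 6 fibroblast markers 2 were higher and 3 lower, and 4 endothelial markers summed to 0.72 to 1.02 TPM in every library. Of 14 macrophage and leukocyte markers 9 were tested, and 4 of these (Adgre1, Itgam, Cd14 and Lyz2) were higher in M-LPS-EV and 0 lower. The 14 markers together summed to 42.4 to 44.9 TPM in M-EV and 51.4 to 58.6 TPM in M-LPS-EV. Lyz2, the most abundant of them, was at 23.1 to 25.7 TPM in M-EV and 31.3 to 37.4 TPM in M-LPS-EV. Over all libraries Cd68 was at 3.36 to 5.57 TPM and Laptm5 at 3.33 to 5.33 TPM. Cd52 was at 0 counts and Ptprc, the pan-leukocyte CD45, at 0.07 to 0.25 TPM. The part of such cells in the changes below was not tested. In bulk RNA, fewer cells of a type and less RNA per cell cannot be told apart.

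A gene was called when its adjusted p was under 0.05 in edgeR's quasi-likelihood test with Benjamini-Hochberg adjustment over 14604 tested genes. Of the 48 proteasome genes 46 had enough counts for the test. In M-LPS-EV 5 rose (Psmb8, Psme1, Psme2, Psma6 and Psmd8) and 9 fell (Psma3, Psmb1, Psmb2, Psmb4, Psmb6, Psmb7, Psmc4, Psmc5 and Psmc6), while 32 were not called. Psmb8 had enough counts for the test only through its M-LPS-EV libraries, where it was high. Its call, here and in the counts below, is given as a value and not as support. Among all tested genes 16.4% were called higher, 15.2% lower and 31.6% in either direction, so the members' 14 calls were near that background in number. The calls were small, since 11 of the 14 changed by less than 1.2-fold. The median log2 fold change of the tested members was -0.032, beside 0.0028 for all tested genes, and the median size without regard to sign was 0.057, beside 0.13. With effective transcript lengths as an offset, 3 members were called higher (Psmb8, Psme1 and Psme2) and 2 lower (Psmc4 and Psmc5), beside 10.5% and 9.09% of all genes. Each member that lost its call there kept nearly the same log2 fold change, such as -0.13 for Psmb2 and 0.12 for Psma6, with a larger SE. On log2(TPM + 1) values (limma-trend) 4 members were higher and 8 lower, beside 8.76% and 9.19%. Against a minimum of 1.2-fold (edgeR's glmTreat) 2 members, Psmb8 and Psme1, were higher and 0 lower, beside 5.2% higher, 2.58% lower and 7.79% in either direction. Of genes with a mean CPM (counts scaled to a common library total) of at least 50, where 34 of the members lie, 21.4% were called higher and 28.2% lower.

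The M-EV and M-LPS-EV libraries did not overlap in scaled counts for 22 tested members, 6 of them higher and 16 lower in M-LPS-EV, beside 42.2% of all tested genes, with 21.5% higher and 20.6% lower. Of the 43 other subunits 42 were tested, and 2 rose (4.76%), 9 fell (21.4%) and 31 were not called. Their log2 fold changes ran from -0.14 to 0.17. The shares called higher and lower were 16.4% and 15.2% of all tested genes, and 21.4% and 28.2% of those with a mean CPM of at least 50. Of the 5 immune subunits 4 were tested, and 3 rose, 0 fell and 1 was not called. Psmb8, counted among those 3, passed the filter only through M-LPS-EV. Where a mean count of 50 was required, 2 of the 5 were called, Psme1 and Psme2, beside 37.5% of all genes tested there.

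**Figure D1:**
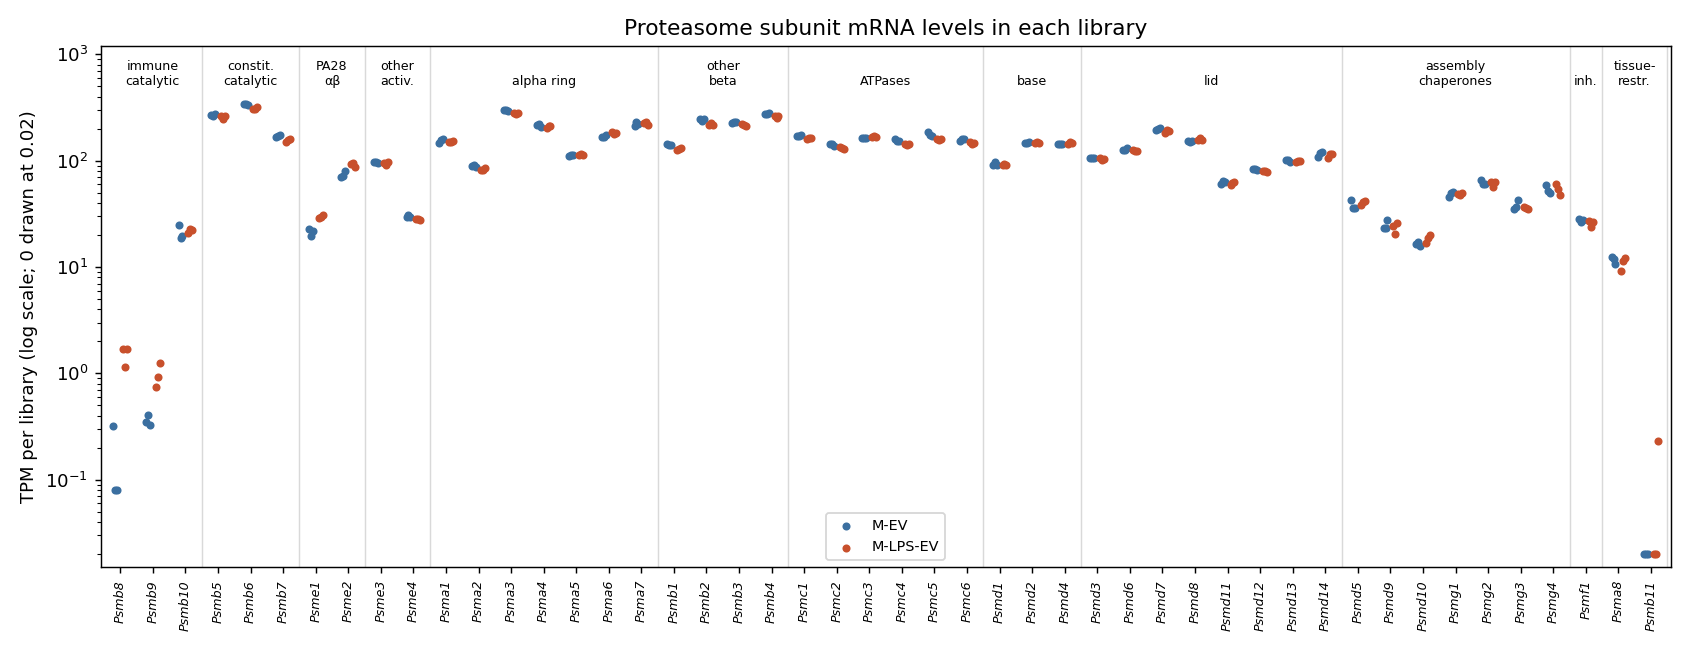
TPM of the 48 proteasome genes in each of the 3 M-EV (blue) and 3 M-LPS-EV (orange) libraries on a log axis, grouped by role, with 0 drawn at 0.02. Psmb8 and Psmb9 lie far below the constitutive subunits, at 0.08 to 1.71 TPM, against 249 to 343 TPM for Psmb5 and Psmb6.

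Psmb8 rose in M-LPS-EV, Psmb9 had too few counts for the test but higher values in every M-LPS-EV library, and Psmb10 was not called. Psmb8 and Psmb9 were scarce in both groups. Psmb8 (chr17:34197721-34201454, plus strand, GRCm38), which takes the place of Psmb5, measured 0.32, 0.08 and 0.08 TPM in the M-EV libraries and 1.7, 1.14 and 1.71 TPM in the M-LPS-EV libraries. Every M-LPS-EV library lay above every M-EV library. These levels rest on 6 counts in M-EV and 45 in M-LPS-EV, a scaled ratio of 8.04, with an exact 95% interval of 3.42 to 23.1 that covers counting error only. The fitted log2 fold change was 2.94 with an SE of 0.54 (edgeR adjusted p = 0.00011), and without M-EV replicate 1 it was 3.79 (adjusted p = 0.00021). Psmb8 passed the count filter only through its M-LPS-EV libraries, so it could be tested only because it was higher there. Protein-coding transcripts made up 100%, 0% and 0% of its TPM in the M-EV libraries, on 4, 1 and 1 counts. In the M-LPS-EV libraries they made up 67.6%, 52.6% and 100%, on 16, 12 and 17 counts. The rest was assigned to a retained-intron transcript, and the M-EV counts are too few to compare these shares between the groups.

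Psmb9 (chr17:34181987-34187764, minus strand), which takes the place of Psmb6 and lies beside Tap1 on the opposite strand, measured 0.35, 0.41 and 0.33 TPM in M-EV and 0.75, 0.93 and 1.26 TPM in M-LPS-EV. The groups did not overlap. Its 15 counts in M-EV and 38 in M-LPS-EV fell below the count filter, so it was not tested, and the ratio after scaling was 2.72 (exact 95% interval 1.46 to 5.31, counting error only). Without a filter its log2 fold change was 1.41 with an SE of 0.52 (edgeR adjusted p = 0.037). With the filter, it entered the test in 4 of the fits that leave out 1 library, only through the M-LPS-EV libraries where it was high, so these fits are given as values and not as support. Its log2 fold change there was 1.35 without M-EV replicate 1 and 1.31 without M-EV replicate 3 (edgeR adjusted p = 0.057 and 0.061), and it was 1.61 without M-EV replicate 2 and 1.60 when M-LPS-EV replicate 1 was dropped (adjusted p = 0.032 and 0.021). Psmb9 and Tap1 overlap, Tap1 itself had 381 counts in M-EV and 564 in M-LPS-EV, and whether reads were counted by strand is not given in the sources used here.

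Psmb10 (chr8:105935735-105938444, minus strand), which takes the place of Psmb7, was the most abundant immune catalytic subunit in both groups. It measured 24.9, 18.9 and 19.6 TPM in M-EV and 20.7, 22.6 and 22.3 TPM in M-LPS-EV. The M-LPS-EV libraries lay within the range of the M-EV libraries, and it was not called, at 0.16 on the log2 scale with an SE of 0.12 (edgeR adjusted p = 0.32). Most of its TPM came from transcripts without a coding sequence. The protein-coding share was 27.2% of its TPM on average in M-EV and 32.6% in M-LPS-EV, and its most abundant transcript is a retained-intron form. Its main coding transcript measured 5.73 ± 1.35 TPM (SD, n = 3) in M-EV and 7.12 ± 0.57 TPM in M-LPS-EV.

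**Figure D2:**
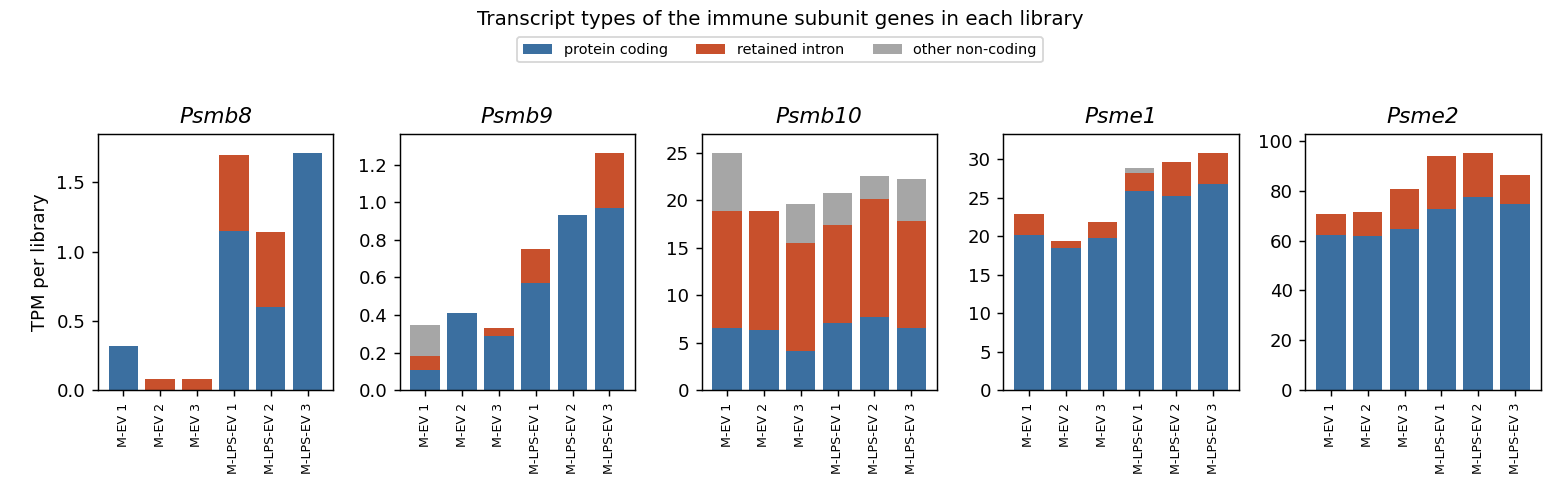
TPM of protein-coding, retained-intron and other non-coding transcripts of the 5 immune subunit genes, stacked per library, with 3 M-EV and 3 M-LPS-EV bars in each panel. Psmb10 is mostly non-coding in all 6 libraries, while Psme1 and Psme2 are mostly protein-coding.

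The constitutive catalytic subunits were abundant, and 2 of the 3 fell slightly in M-LPS-EV. Psmb5, the chymotrypsin-like site, measured 268, 263 and 272 TPM in M-EV and 261, 249 and 261 TPM in M-LPS-EV, and it was not called, at -0.045 on the log2 scale with an SE of 0.032 (edgeR adjusted p = 0.31). Psmb6, the caspase-like site, measured 343, 340 and 333 TPM in M-EV and 308, 307 and 317 TPM in M-LPS-EV. On the log2 scale it fell by 0.11 with an SE of 0.031 (edgeR adjusted p = 0.0088, or 0.053 with the length offset). Psmb7, the trypsin-like site, measured 166, 170 and 173 TPM in M-EV and 150, 156 and 160 TPM in M-LPS-EV. Its log2 fold change was also -0.11, with an SE of 0.036 (edgeR adjusted p = 0.018, or 0.095 with the length offset), and the call was lost without M-EV replicate 2 (adjusted p = 0.054), M-EV replicate 3 (0.083) or M-LPS-EV replicate 1 (0.1). In each of these genes the M-LPS-EV libraries lay below the M-EV libraries, on both the TPM and the scaled-count scale. Psmb7 overlaps Nek6 on the opposite strand.

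Set against its constitutive partner, each scarce immune subunit made up a larger part in M-LPS-EV but stayed under 1 percent. The TPM of Psmb8 was 0.12%, 0.0304% and 0.0294% of that of Psmb5 in M-EV and 0.652%, 0.457% and 0.655% in M-LPS-EV. The TPM of Psmb9 was 0.102%, 0.121% and 0.0991% of that of Psmb6 in M-EV and 0.243%, 0.303% and 0.398% in M-LPS-EV. Neither pair overlapped between the groups. Psmb8 over Psmb5 differed by 3.30 on the log2 scale, and by 4.30 without M-EV replicate 1. The TPM of Psmb10 was 15%, 11.1% and 11.3% of that of Psmb7 in M-EV and 13.8%, 14.4% and 13.9% in M-LPS-EV, which overlapped. Over protein-coding transcripts alone, Psmb10 was 3.4% ± 0.853 (SD, n = 3) of Psmb7 in M-EV and 4.6% ± 0.425 in M-LPS-EV, with every M-LPS-EV library higher. The genes were chosen with earlier results known, so these ratios are given with no test.

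**Figure D3:**
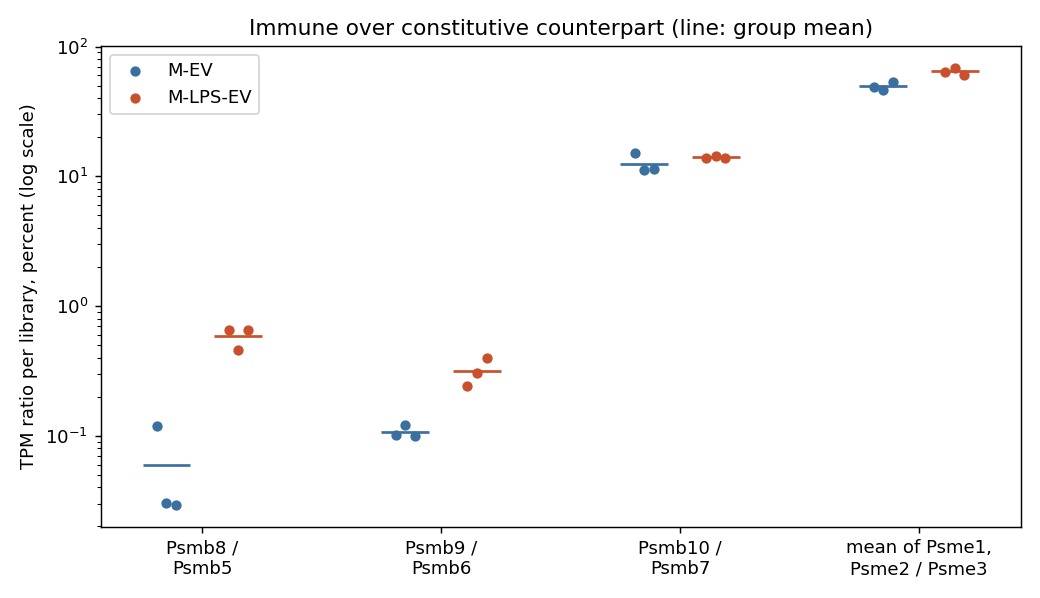
TPM of each immune subunit as a percent of its constitutive counterpart in every library, with group means. The ratios of Psmb8 to Psmb5 and of Psmb9 to Psmb6 are below 1% in every library and higher in all 3 M-LPS-EV libraries, whereas that of Psmb10 to Psmb7 overlaps between groups; the mean of Psme1 and Psme2 over Psme3 is 49.5% in M-EV and 64.4% in M-LPS-EV.

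Of the activators, both PA28 subunits of the interferon-responsive ring rose, while the other activators were not called. Psme1 (chr14:55578123-55581529, plus strand), the PA28 alpha subunit, measured 22.8, 19.4 and 21.8 TPM in M-EV and 28.8, 29.5 and 30.7 TPM in M-LPS-EV. The groups were clear of each other, and its log2 fold change was 0.47 with an SE of 0.077 (edgeR adjusted p = 2.8e-05). Psme2 (chr14:55587441-55591113, minus strand), the PA28 beta subunit, measured 70.5, 71.5 and 80.6 TPM in M-EV and 93.8, 94.9 and 86.4 TPM in M-LPS-EV. Again the groups did not overlap, and its log2 fold change was 0.34 with an SE of 0.048 (edgeR adjusted p = 2.9e-06). Against the minimum of 1.2-fold in glmTreat Psme1 kept its call (adjusted p = 0.022) and Psme2 lost it (adjusted p = 0.17). Psme3, the nuclear PA28 gamma, measured 96.2, 97.7 and 95.9 TPM in M-EV and 95.5, 90.8 and 97 TPM in M-LPS-EV, with a log2 fold change of -0.035 (edgeR adjusted p = 0.41). Psme4, the PA200 activator, had a log2 fold change of -0.06 (edgeR adjusted p = 0.19), and Psmf1, the inhibitor PI31, one of -0.093 (adjusted p = 0.16). The mean of Psme1 and Psme2 was 49.5% ± 3.53 (SD, n = 3) of the TPM of Psme3 in M-EV and 64.4% ± 4.1 in M-LPS-EV.

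Short promoter sites of the members that head these results are shown, since these genes moved or are the partners of those that did. The sites come from the RefSeq promoter table for GRCm38.p6 (250 bases before to 50 after each start), which held 43 promoters of 40 of the 48 genes. Capitals mark the match, and each run is 30 bases long. The runs of Psmb8, Psme1 and Psmb6 overlap exons of annotated transcripts of these genes. Psmb8 (chr17:34198088-34198117, plus strand) holds a gamma-activated site, TTCNNNGAA, Psme1 (chr14:55578493-55578522, plus strand) an interferon-stimulated response element, matched on the other strand, and Psmb5 (chr14:54618023-54618052, minus strand) and Psmb6 (chr11:70525338-70525367, plus strand) the antioxidant response element core, TGACNNNGC.
Psmb8: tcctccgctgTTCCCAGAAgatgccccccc
Psme1: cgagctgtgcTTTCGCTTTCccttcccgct
Psmb5: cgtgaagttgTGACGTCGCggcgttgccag
Psmb6: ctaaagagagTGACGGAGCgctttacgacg

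Both strands were searched, and 0 matches overlapped another motif. The interferon-stimulated response element stood in 5 of 43 member promoters (11.6%), those of Psmb3, Psmd4, Psmd9, Psme1 and Psmg4, beside 3.44% of all 32851 promoters. TTCNNNGAA stood in 3 (6.98%), those of Psmb8, Psmd2 and Psmg1, beside 8.3% of all promoters. Of the members with either of these motifs, Psmb8 and Psme1 were called, and Psmb3, Psmd2, Psmd4, Psmd9, Psmg1 and Psmg4 were not. Among all tested genes 31.6% were called in either direction. The call of Psmb8, which passed the count filter only through M-LPS-EV, is not support here. The promoters of Psmb9, Psmb10 and Psme2 held neither. TGACNNNGC stood in 6 (14%), beside 12.4%. CCAAT stood in 14 (32.6%), beside 37.4%, and the NF-kB motif in 0, beside 0.411%. A match describes letters in this window and no binding, and a link between a match and a change was not tested.

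In the beta ring without the immune subunits, 5 of 7 genes fell and 0 rose, beside 15.2% of all tested genes called lower and 28.2% of those with a mean CPM of at least 50. With the length offset 0 of the 5 kept the call (edgeR adjusted p from 0.05 for Psmb2, just past the threshold, to 0.095 for Psmb7). For all 7 the M-LPS-EV libraries lay below the M-EV libraries, beside 20.6% of all tested genes with such a separation. Their TPM summed to 1666 ± 6.48 (SD, n = 3) in M-EV and 1547 ± 13.5 in M-LPS-EV. Psmb2, a structural subunit, had the largest fall of them, with 244, 238 and 247 TPM in M-EV and 215, 227 and 218 TPM in M-LPS-EV. The M-LPS-EV libraries were all lower, and its log2 fold change was -0.13 with an SE of 0.036 (edgeR adjusted p = 0.0057). Psmb1 fell by 0.10 and Psmb4 by 0.11 on the log2 scale (edgeR adjusted p = 0.014 and 0.0075). Psmb1 also lost its call without M-EV replicate 1 (adjusted p = 0.061) or M-LPS-EV replicate 1 (0.068), and Psmb4 without M-LPS-EV replicate 2 (0.051). Psmb3 was not called at -0.073 (adjusted p = 0.13).

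In the alpha ring, whose 7 genes form the gate of the barrel, 1 gene rose and 1 fell (14.3% each, beside 16.4% and 15.2% of all tested genes) and 5 were not called. The summed TPM was 1260 ± 17 (SD, n = 3) in M-EV and 1241 ± 3.23 in M-LPS-EV. Psma6 measured 168, 168 and 175 TPM in M-EV and 185, 180 and 182 TPM in M-LPS-EV. Each M-LPS-EV library was higher, and its log2 fold change was 0.12 with an SE of 0.034 (edgeR adjusted p = 0.008). Psma3 measured 298, 301 and 296 TPM in M-EV and 278, 275 and 279 TPM in M-LPS-EV. It fell by 0.088 on the log2 scale (edgeR adjusted p = 0.02), and protein-coding transcripts made up only 45.3% of its TPM in M-EV and 44.6% in M-LPS-EV. Psma1, Psma2, Psma4, Psma5 and Psma7 had log2 fold changes between -0.071 and 0.047. Both Psma6 and Psma3 lost the call under the length offset, at edgeR adjusted p = 0.063 and 0.07, and Psma3 also without M-EV replicate 1 (0.051) or M-EV replicate 2 (0.072).

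In the 19S particle 3 genes of the ATPase ring of the base fell and 1 gene of the lid rose. Of the base subunits outside that ring 0 were called. Over its 17 genes this was 17.6% lower and 5.88% higher, beside 15.2% and 16.4% of all tested genes. Of the 6 ATPases, which unfold the substrate, the genes that fell were Psmc4, Psmc5 and Psmc6, and in 5 the M-LPS-EV libraries lay below the M-EV libraries, a separation found in 20.6% of all tested genes. Psmc5 measured 185, 175 and 170 TPM in M-EV and 159, 157 and 161 TPM in M-LPS-EV, the lowest log2 fold change of the members, -0.14 with an SE of 0.034 (edgeR adjusted p = 0.0023). Psmc4 measured 159, 154 and 154 TPM in M-EV and 143, 140 and 142 TPM in M-LPS-EV, with a log2 fold change of -0.12 with an SE of 0.032 (edgeR adjusted p = 0.0053). In both genes all M-LPS-EV libraries were lower, and both kept the call with the length offset. Psmc6 fell by 0.086 on the log2 scale (edgeR adjusted p = 0.042), a call lost in 8 of 18 alternatives: with the length offset (0.11), DESeq2 (0.073), limma-trend on TPM (0.057) and the minimum of 1.2-fold, and without M-EV replicate 1 (0.058), M-EV replicate 2 (0.23), M-LPS-EV replicate 1 (0.15) or M-LPS-EV replicate 3 (0.053). Psmc1, Psmc2 and Psmc3 were not called, at -0.053, -0.079 and 0.021.

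Among the 3 base subunits outside the ATPase ring, Psmd1, Psmd2 and Psmd4, 0 were called. Of the 8 lid subunits, which remove ubiquitin and hold the particle together, only Psmd8 was called. It measured 152, 149 and 153 TPM in M-EV and 157, 164 and 158 TPM in M-LPS-EV, with every M-LPS-EV library higher, and its log2 fold change was 0.093 with an SE of 0.033 (edgeR adjusted p = 0.032). This call was lost in 10 of 18 alternatives, among them those without M-EV replicate 2 (adjusted p = 0.11), M-EV replicate 3 (0.091) or M-LPS-EV replicate 2 (0.16). Psmd14, the deubiquitinase of the lid, measured 116 ± 6.46 TPM (SD, n = 3) in M-EV and 112 ± 5.9 TPM in M-LPS-EV. Of the 7 assembly chaperones (Psmd5, Psmd9, Psmd10 and Psmg1 to Psmg4) 0 were called, and their summed level was 282 TPM in both groups.

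**Figure D4:**
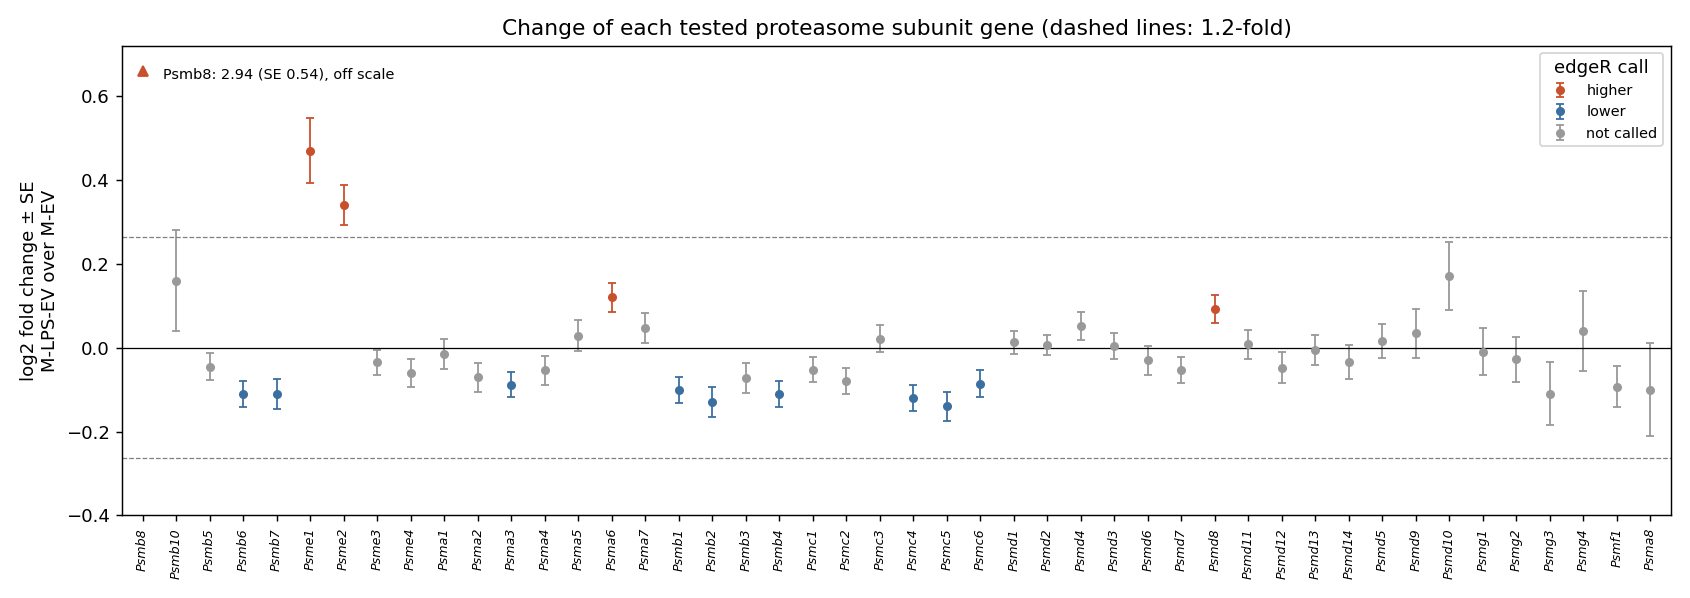
Log2 fold change of each tested proteasome gene (M-LPS-EV over M-EV, with its SE) from the edgeR fit, grouped by role and marked by call, with Psmb8 at 2.94 drawn at the edge of the axis. The beta ring and most ATPases lie just below 0, while Psme1 (0.47) and Psme2 (0.34) stand above 0.

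The tissue-restricted members were low. Psma8, the testis form of an alpha subunit, measured 12.4, 11.9 and 10.6 TPM in M-EV and 9.18, 11.4 and 12.2 TPM in M-LPS-EV, which overlapped. Psmb11, the thymus catalytic subunit, had 1 count in each group and was not tested.

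Levels also varied between roles. Mean TPM per gene ran from 85.8 to 288 in the alpha ring and from 137 to 168 in the ATPases, and it was 17.5 to 61.3 in the assembly chaperones. Psmb8, Psmb9 and Psmb10 summed to 21.6 TPM on average in M-EV and 24.3 TPM in M-LPS-EV, most of it Psmb10. Of the tested members 43 of 46 (93.5%) had a log2 fold change smaller than 0.2 in size, beside 65.4% of all tested genes and 80.9% of those with a mean CPM of at least 50.

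Genes around the proteasome, from a list of its cofactors, shuttle factors and ubiquitin genes, were called in 9 of 29 tested, 4 higher and 5 lower, near the 31.6% of all tested genes called in either direction. Their median log2 fold change was -0.017. Nfe2l1, which drives proteasome genes when degradation is impaired, rose by 0.12 log2 units with an SE of 0.018 (edgeR adjusted p = 8.2e-06), a call lost in limma-trend on TPM (adjusted p = 0.11). Its relative Nfe2l2, the antioxidant response factor, named after its values were seen, rose by 0.25 (edgeR adjusted p = 1.6e-06). The ubiquitin ligase Ube3a fell by 0.16 (SE 0.033, adjusted p = 0.00037), as did Ufd1, a cofactor of Vcp, by 0.16 (adjusted p = 0.0022), the shuttle factor Ubqln1 by 0.12 (adjusted p = 0.0053) and Vcp, the segregase, by 0.069 (adjusted p = 0.0092), all in edgeR. These 4 lost the call with the length offset (adjusted p = 0.86, 0.053, 0.086 and 0.056), where the log2 fold change of Ube3a was -0.027, and Ubqln1 and Vcp also without M-EV replicate 3 (0.052 and 0.068). Pomp, the chaperone that matures the core, had a log2 fold change of -0.00083 (edgeR adjusted p = 0.99). The ubiquitin-like modifier Ubd, which targets proteins to the proteasome under interferon, was at 0 counts in all libraries.

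Of 17 tested genes that regulate immune subunits or present their peptides, 15 were higher and 0 lower, beside 16.4% and 15.2% of all tested genes. Their median log2 fold change was 0.43. The list was drawn up with earlier results of these data known. Against the minimum of 1.2-fold in glmTreat Irf2, Stat2, Ifngr1, Jak1, Jak2 and Socs1 lost the call. Among the presentation genes Tapbp, which loads peptide on MHC class I, rose by 1.56 log2 units with an SE of 0.041 (edgeR adjusted p = 2.2e-20), and H2-K1 and H2-D1, class I heavy chains, by 0.89 and 0.73. Ifngr2, a chain of the interferon gamma receptor, rose by 0.83 (SE 0.054, edgeR adjusted p = 3.6e-12). The transcription factor Irf1, which acts at immune subunit promoters, rose by 0.88 (SE 0.078, adjusted p = 1.6e-09), and Nlrc5, an activator of class I genes, was not called at 0.41 (SE 0.28, adjusted p = 0.3), both in edgeR.

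**Figure D5:**
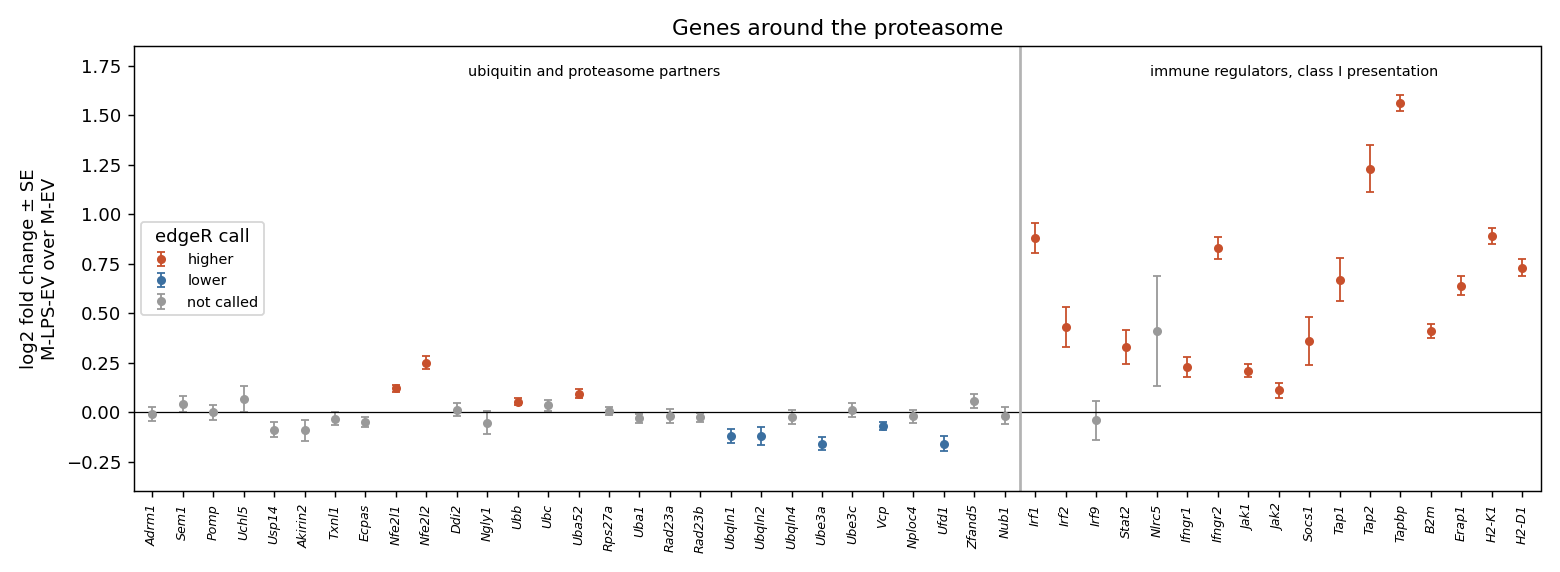
Log2 fold change of the tested genes around the proteasome (M-LPS-EV over M-EV, with SE), split into proteasome partners and immune regulators with presentation genes. Partners lie close to 0, and 15 of 17 immune genes were called higher.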

How the data were processed

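Sample titles gave the groups and replicate numbers. The tools STAR, RSEM and DESeq2 and the build mm10 are listed per the submitters' processing notes, while their versions, the annotation and the strand setting are not stated in the sources at hand. The authors deposited, per transcript, an RSEM expected count and a TPM value, per the file headers, with an effective length in bases. Expected counts were summed per gene and rounded, and TPM were summed per gene. Of the transcript identifiers 99.14% were found in GENCODE M21 (GRCm38), which gave symbols, gene types and positions, 1-based.

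Genes were filtered with edgeR's filterByExpr (minimum count 10, minimum total 15), scaled by TMM and fitted with group as the only term (edgeR 4.0.16, glmQLFit and glmQLFTest, R 4.3.3). Tests were two-sided and adjusted over all 14604 tested genes. The members, lists and the naming rule were chosen with earlier results of these data known. The rule took the immune subunits with their constitutive counterparts, and the 5 highest and 5 lowest called members. From partners, immune regulators and presentation genes pooled it took up to 4 genes per direction, plus Nfe2l1, Pomp, Irf1 and Nlrc5. From the list of immune regulators 1 gene is not reported here. Alternatives were RLE and upper-quartile scaling, no filter, a mean count of at least 50, the length offset, the replicate block, DESeq2 1.42.0, limma-voom and limma-trend on log2(TPM + 1) (limma 3.58.1), a minimum of 1.2-fold, each library left out, and, added after seeing the data, counts of near-identical copies (BLAST 2.17.0, at least 90% identity over at least 300 bases). The test was tried on simulated counts. Replicate numbers were not used as pairs in the main fit. The correlations of same-numbered libraries' deviations from their group means were 0.0282, -0.0438 and -0.0189. Those of different-numbered libraries ran from -0.0388 to 0.0601. With 3 libraries per group these values cannot decide whether the replicates were paired. Figures were drawn with matplotlib 3.10.9.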

Additional observations from a re-analysis of the deposited data

How the results depend on the processing

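The counts of called proteasome genes, 5 higher and 9 lower, stayed within 1.5 times of those values in every alternative run except the length offset (3 higher, 2 lower) and the minimum of 1.2-fold (2 higher, 0 lower). Leaving out each library in turn gave 4 to 7 higher and 6 to 9 lower. Subunits other than the immune ones, 2 higher and 9 lower, gave 1 higher with upper-quartile scaling, no filter, DESeq2 and limma-trend, 0 higher and 2 lower with the length offset, and 0 and 0 at the minimum of 1.2-fold; each library left out gave 1 to 3 higher (1 without M-EV replicate 2, M-EV replicate 3 or M-LPS-EV replicate 2) and 6 to 9 lower. With the replicate number as a block, 4 members were higher, 1 of them not an immune subunit, and 9 lower. Proteasome partners, immune regulators and presentation genes, pooled here, were called in 19 cases higher and 5 lower. They gave 11 higher and 2 lower with limma-trend, 0 lower with the length offset, and 9 higher and 0 lower at the minimum of 1.2-fold. With each library left out they gave 17 to 18 higher and 2 to 5 lower (2 without M-EV replicate 3). Over protein-coding transcripts the log2 change of the ratio of Psmb10 to Psmb7 was 0.44 instead of 0.17. The direction of Pomp turned to 0.082 with the length offset, 0.0003 with limma-voom, 0.069 with limma-trend, and ranged from -0.02 to 0.025 with each library left out, positive without M-EV replicate 3 (0.025), M-LPS-EV replicate 1 (0.0033) or M-LPS-EV replicate 3 (0.00086); the cause of these moves was not tested. Adding near-identical copies, at most 1.97% of the summed counts of a member and its copies, changed no call. Low counts limit Psmb8 and Psmb9. Psme1 and Psme2 rose by 1.38-fold and 1.27-fold, and each called change of the subunits other than the immune ones was under 1.2-fold.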
